A study of Homo sapiens with 4 samples.

Results

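CCL20 and 7 other chemokine genes that encode attractants of mononuclear leukocytes were followed in CAL27 cells, a human cell line established from a squamous cell carcinoma of the tongue. The 8 genes (CCL20, CCL2, CCL5, CCL28, CXCL16, CX3CL1, CXCL14 and CCL22) were taken by name from 29437 genes with counts and FPKM, by a rule that names no value. They were chosen with earlier results of these data known. There were 4 libraries of polyadenylated RNA, 2 of cells labelled negative control and 2 of cells labelled CCL20 overexpression, all taken after 48 h. Per the labels the overexpressing line was made with a lentivirus. The promoter of the vector, the content of the control vector, and whether the line is a clone or a pool are not stated in the labels. The design asks which genes differ when CCL20 is overexpressed. The labels do not say whether replicates were separate cultures, so every p-value measures only the spread between these libraries, which may be technical.

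Chemokines are small secreted proteins that bind G protein-coupled receptors on leukocytes and direct their migration along a gradient. They are classed by the spacing of the first conserved cysteines, as CC, CXC or CX3C. CCL20 is the ligand of CCR6 on immature dendritic cells, B cells and Th17 cells, and epithelia produce it in response to interleukin-1, tumour necrosis factor and interleukin-17. CCL2 attracts monocytes through CCR2, CCL5 attracts T cells and monocytes, CCL22 binds CCR4 on regulatory T cells, and CCL28 is a mucosal ligand of CCR10 and CCR3. CXCL16 and CX3CL1 are made as transmembrane proteins that bind CXCR6 and CX3CR1 and are released by proteases of the ADAM family. CXCL14 is a chemokine of normal squamous epithelium.

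The cysteine spacing that sets these classes is shown first, because it identifies each member. The lines give coding sequence of the annotated principal transcript, 5′ to 3′ on the gene's strand, from GENCODE 29 on GRCh38, with the codons of the paired cysteines in capitals.
CCL20: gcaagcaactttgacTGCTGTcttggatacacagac
CCL2: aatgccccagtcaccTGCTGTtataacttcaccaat
CCL5: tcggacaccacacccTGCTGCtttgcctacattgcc
CCL28: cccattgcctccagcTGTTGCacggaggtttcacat
CCL22: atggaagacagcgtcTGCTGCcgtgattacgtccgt
CXCL16: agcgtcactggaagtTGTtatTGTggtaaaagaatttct
CXCL14: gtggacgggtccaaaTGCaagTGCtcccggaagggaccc
CX3CL1: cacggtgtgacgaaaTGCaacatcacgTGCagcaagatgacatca
The 5 CC genes have 0 codons between the cysteines, CXCL16 and CXCL14 have 1, and CX3CL1 has 3. The search began after codon 15, past a cysteine pair at the start of the CCL20 signal peptide.

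The full coding sequence of CCL20 is given because CCL20 is the gene that the labels name as overexpressed. CCL20 (ENSG00000115009) lies on GRCh38 chromosome 2 from 227805739 to 227817564 on the plus strand. Its principal mRNA of 800 nt has a coding part of 288 nt without the stop codon and a 3′ UTR of 454 nt.
CCL20: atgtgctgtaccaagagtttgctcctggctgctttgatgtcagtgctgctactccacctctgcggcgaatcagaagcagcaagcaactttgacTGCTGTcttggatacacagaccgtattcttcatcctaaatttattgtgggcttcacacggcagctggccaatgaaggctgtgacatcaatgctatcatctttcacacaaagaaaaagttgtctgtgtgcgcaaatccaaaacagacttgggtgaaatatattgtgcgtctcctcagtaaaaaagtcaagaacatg
The tables give 1 count per gene, so reads of the native gene and of a transgene cannot be told apart.

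Total counts lay between 13681862 and 17860695 per library. Across 10572 tested coding genes, the log2 fold change between groups followed mRNA length (Spearman correlation -0.73 over genes, which are not independent replicates). The median log2 fold change went from 0.98 in the 1058 genes with the shortest mRNAs (207 to 1271 nt), which hold CCL20 and CCL2, to -0.73 in the 1058 with the longest. Each member is therefore set against the 200 tested coding genes nearest to it in mRNA length. Squamous markers were abundant, at 970 to 1282 FPKM summed over 12 genes and led by KRT5 (447 FPKM) and SFN (297 FPKM). Leukocyte markers summed to 4.33 to 5.67 FPKM over 16 genes, of which 6, among them CD2, MS4A1, LYZ, AIF1 and TYROBP, have no row in the tables used here. The highest of them were CSF1R (2.28 FPKM) and CD14 (1.28 FPKM). Fibroblast markers summed to 2.97 to 5.59 FPKM over 9 genes, led by COL1A1 and PDGFRB (2.72 and 0.835 FPKM). Endothelial markers summed to 5.59 to 9.21 FPKM over 7 genes, most of it CDH5 (6.75 FPKM), with TEK at 0.190 FPKM. The leukocyte, fibroblast and endothelial sums were lower in both overexpression libraries than in both controls, and their part in the results was not tested. These sums are not corrected for the length trend, and CSF1R, COL1A1 and CDH5 have mRNAs of 3989, 6727 and 4123 nt. In a fit with that trend as an offset their log2 fold changes were -0.13, 0.10 and -0.22 (edgeR adjusted p from 0.460 to 0.868). By FPKM, CD14 and TEK were higher in both overexpression libraries than in both controls. In bulk RNA, fewer cells that express a gene and less of its RNA per cell cannot be told apart.

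Of the chemokines studied, CCL2 was the most abundant and CCL5 was nearly absent. CCL2 had a mean level of 106 ± 18.4 FPKM over the 4 libraries, ahead of CXCL16 at 40.3 ± 8.40 FPKM, CCL20 at 10.5 ± 3.55 FPKM and CX3CL1 at 5.26 ± 0.826 FPKM (SD, n = 4). The ranges of these 4 genes did not overlap, and the order CCL2, CXCL16, CCL20, CX3CL1 was the same in each library. CXCL14 and CCL28 followed at 1.98 ± 0.377 and 1.87 ± 0.516 FPKM (SD, n = 4), and their order changed between libraries. CCL28 was the higher in both controls and CXCL14 in both overexpression libraries. CCL28 and CCL22 (1.07 ± 0.320 FPKM) also overlapped. CCL5 was at 0.0710 ± 0.0626 FPKM (SD, n = 4).

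The deposited FPKM divides by the union of all annotated exons, which exceeds the principal mRNA for some members. For CCL20 that union is 1594 nt against an mRNA of 800 nt, and for CCL2 it is 1986 against 741 nt. When the FPKM was rescaled to the length of the principal mRNA, the level of CCL2 was 283 ± 49.3 and that of CXCL16 57.9 ± 12.1 (SD, n = 4). On this scale CCL20 stood at 21.0 ± 7.07, CX3CL1 at 9.47 ± 1.49, CCL28 at 2.71 ± 0.747 and CXCL14 at 1.99 ± 0.378 (SD, n = 4). The length used thus moved CCL28 ahead of CXCL14 and left the order of the 4 most abundant members.

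**Figure D1:**
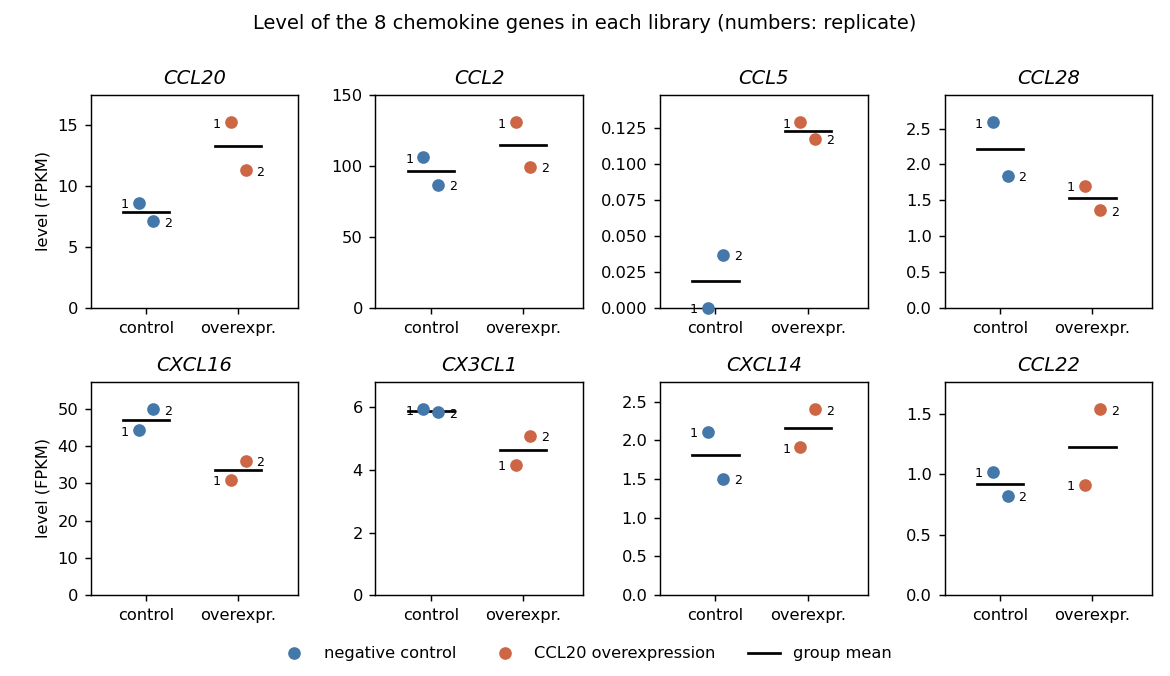
Level in FPKM (y axis, linear from 0, own scale in each panel) of the 8 chemokine genes in each negative control and CCL20 overexpression library (points, with replicate numbers) and the group means (lines). Both overexpression libraries lie above both controls for CCL20 and, at 3 or fewer reads, for CCL5, and below both controls for CXCL16, CX3CL1 and CCL28. By total count, to which FPKM is scaled, all tested genes had a median log2 fold change of -0.20.

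CCL20 was higher in the cells labelled as overexpressing it, but by no more than other short mRNAs. The negative control libraries held 188 and 202 CCL20 reads (8.62 and 7.10 FPKM) and the overexpression libraries 372 and 303 (15.2 and 11.3 FPKM). Both overexpression libraries were above both controls, with replicate 1 the higher in each group by FPKM. CCL20 rose 1.94-fold on TMM-scaled counts (log2 fold change 0.95, SE 0.21, edgeR adjusted p = 0.0143). The call was lost without control replicate 1 (log2 fold change 1.09) or control replicate 2 (0.82). The log2 fold change was 0.78 without overexpression replicate 1 and 1.12 without overexpression replicate 2, in fits that take their spread from the controls alone. The reads of a group, 390 in the controls and 675 with overexpression, have exact Poisson 95% intervals of 352 to 431 and 625 to 728, which cover counting error only.

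Among the 200 coding genes nearest to CCL20 in mRNA length (716 to 893 nt), 164 were called higher in the same edgeR fit and 2 lower. In 181 of them both overexpression libraries lay above both controls, as they did for CCL20. Their median log2 fold change was 1.08 (quartiles 0.87 and 1.25), and 138 of the 200 exceeded CCL20. Per library, log2 CPM of CCL20 minus its mean over the 4 libraries was compared with the median of the same quantity in these 200 genes. CCL20 lay 0.19 above and 0.11 below that median in control replicates 1 and 2, and 0.23 above and 0.32 below it in overexpression replicates 1 and 2. The groups overlapped, with an overexpression minus control difference of -0.09 where the replicates had an SD of 0.22 in the controls and 0.39 with overexpression (n = 2 each). A fit that carries the length trend as an offset gave CCL20 a log2 fold change of 0.06 (SE 0.24, edgeR adjusted p = 0.916), which ended the call.

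The coding genes whose profile over the 4 libraries was nearest to that of CCL20, among these 200, were ABRACL, NDUFC1, SPCS1, CSF2 and EEF1B2. Their Euclidean distances to CCL20 in centred log2 CPM were 0.030, 0.105, 0.111, 0.115 and 0.134, against a median distance of 0.605 over the 200. Their log2 fold changes lay between 0.92 (SPCS1) and 1.04 (NDUFC1). ABRACL, at 30.3 FPKM, deviated from its mean by -0.33 and -0.60 in the control replicates and by 0.65 and 0.28 with overexpression, where CCL20 deviated by -0.33, -0.61, 0.63 and 0.31.

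**Figure D2:**
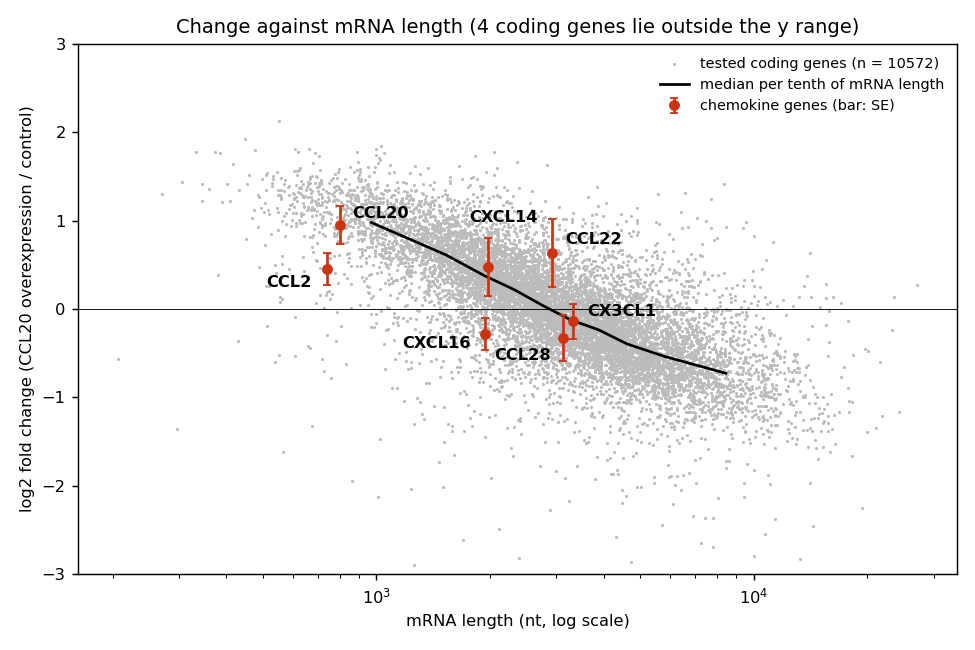
edgeR log2 fold change (y axis, CCL20 overexpression over control) against mRNA length in nt (x axis, log scale) for 10572 tested coding genes (grey), with the median per length bin of 1057 or 1058 genes (line) and 7 chemokine genes (red, bars are SE). CCL20 lies on the trend of short mRNAs, CCL2 and CXCL16 lie below the trend, and CCL22 lies above it.

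Relative to the CCL2, CXCL16, CX3CL1 or CCL28 reads of the same library, CCL20 reads were more frequent in both libraries labelled as overexpressing it than in both controls. Such a ratio needs no scaling between libraries. Per 1000 CCL2 reads there were 65.2 and 65.6 CCL20 reads in the controls and 93.4 and 91.1 with overexpression. The exact binomial 95% intervals were 55.9 to 75.6 and 56.6 to 75.6 in the controls and 83.8 to 104 and 80.7 to 102 with overexpression, and they cover counting error only. The mean ratio was 65.4 ± 0.266 in the controls and 92.2 ± 1.66 with overexpression (SD, n = 2 each). This was a 1.41-fold difference between a pair of mRNAs of like length. Relative to the median of its own 200 like-length genes, CCL20 differed between groups by -0.09, and its groups overlapped. CCL2 differed by -0.62 on that measure, with both overexpression libraries below both controls. The replicate SDs on that measure were 0.22 and 0.39 for CCL20 and 0.20 and 0.36 for CCL2 (controls and overexpression, n = 2 each). The part of each gene in the higher ratio, and its cause, were not tested.

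Per 1000 CXCL16 reads the CCL20 reads were 111 and 81.2 in the controls and 280 and 178 with overexpression, a 2.38-fold difference of the means. Per 1000 CX3CL1 reads they were 387 and 323 against 974 and 589, a 2.20-fold difference. Against CCL28 the difference of the means was 2.40-fold, and the groups did not overlap in these comparisons. Against CXCL14 and CCL22 the groups overlapped, with 1.43- and 1.41-fold differences of the means. The mRNAs of CXCL16, CX3CL1, CCL28, CXCL14 and CCL22 are longer than that of CCL20, so these 5 ratios carry the length trend. Of 6 ratios computed, the groups did not overlap in 4, and an exact two-sided permutation test of 2 against 2 libraries cannot go below p = 0.33, so no ratio was tested. Such ratios were not computed for other genes. In TMM-scaled CPM both overexpression libraries lay above both controls for 35.8% of all tested genes. They did so for 181 of the 200 coding genes nearest to CCL20 in mRNA length.

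**Figure D3:**
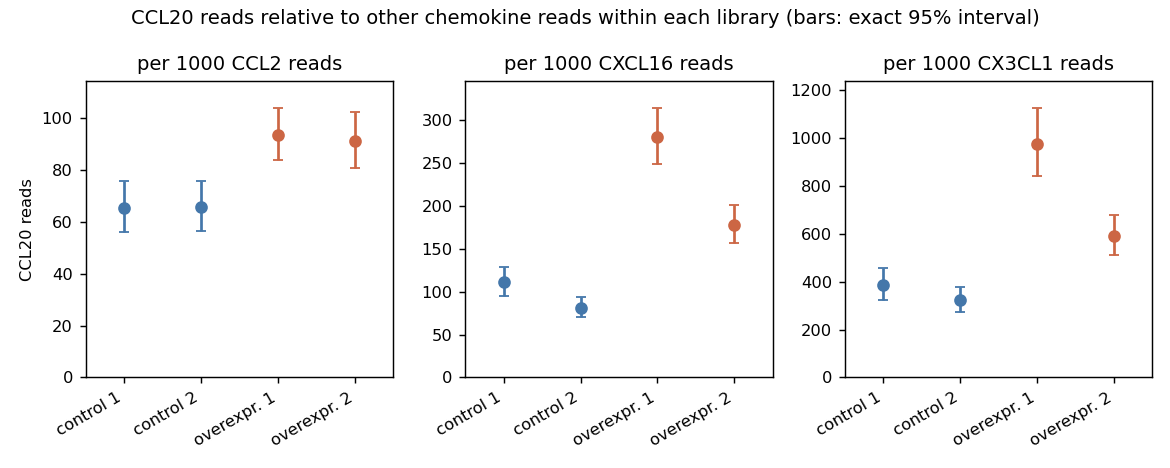
CCL20 reads per 1000 reads of CCL2, CXCL16 and CX3CL1 (y axes, linear from 0) in each library, with exact 95% binomial intervals (bars, counting error only). The controls sit at 65.2 and 65.6 per 1000 CCL2 reads and the overexpression libraries at 93.4 and 91.1.

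Among the other CC chemokines, CCL2 (ENSG00000108691; chromosome 17, 34255218 to 34257203, plus strand) had a smaller difference between groups than genes of its length. Its counts were 2884 and 3081 in the controls and 3982 and 3327 with overexpression, or 106 and 86.9 FPKM against 131 and 99.3 FPKM. The groups overlapped in FPKM and did not overlap in TMM-scaled CPM, where the controls were at 198 and 163 and the overexpression libraries at 271 and 222. The log2 fold change of 0.45 (SE 0.18) did not pass (edgeR adjusted p = 0.0909; DESeq2 adjusted p = 0.0798), and it was -0.03 on a TPM scale and -0.47 (SE 0.21, edgeR adjusted p = 0.220) with the length offset. The log2 fold change was 0.29 without overexpression replicate 1 and 0.60 without overexpression replicate 2. These fits take their spread from the controls alone. Of the 200 coding genes nearest in mRNA length, with a median log2 fold change of 1.12, 177 exceeded CCL2. Relative to their median, CCL2 was at 0.46 and 0.17 in the controls and at -0.05 and -0.56 with overexpression, so the groups did not overlap. The difference between groups was -0.62 (replicate SD 0.20 and 0.36, n = 2 each).

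CCL22, the CCR4 ligand (ENSG00000102962; chromosome 16, 57358772 to 57366190, plus strand), was read 41 and 43 times in the controls and 41 and 76 times with overexpression. Overexpression replicate 2 stood apart, at 1.54 FPKM against 0.822 to 1.02 FPKM in the other 3 libraries. The log2 fold change was 0.64 (SE 0.38, edgeR adjusted p = 0.227), and it was 0.15 without overexpression replicate 2 and 0.998 without overexpression replicate 1. Of the 200 coding genes nearest in mRNA length 4 had a larger log2 fold change, and the distance of CCL22 from their median was 0.71 in overexpression replicate 2 and -0.12 in replicate 1, against -0.16 and -0.42 in the controls. The groups did not overlap on this measure, in which the overexpression replicates had an SD of 0.59.

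CCL28 (ENSG00000151882; chromosome 5, 43376645 to 43412391, minus strand) had 160 and 149 reads in the controls and 118 and 104 with overexpression, at 2.58 and 1.84 FPKM against 1.70 and 1.36 FPKM. The groups did not overlap in FPKM, which is scaled to total count, where all tested genes had a median log2 fold change of -0.20. On TMM-scaled CPM the groups of CCL28 overlapped, and the log2 fold change was -0.33 (SE 0.26, edgeR adjusted p = 0.345). Its 200 like-length genes had a median log2 fold change of -0.12, and 155 of them were above CCL28. CCL5, a T cell attractant (ENSG00000271503; chromosome 17, 35871491 to 35880793, minus strand), had 0 and 1 reads in the controls and 3 in each overexpression library, which is at or under the floor of 3 reads per library, so no fold is given. It was the 1 member under a mean of 1 FPKM and was not tested.

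Of the transmembrane chemokines, CXCL16 was lower relative to genes of like length and CX3CL1 followed them. CXCL16 (ENSG00000161921; chromosome 17, 4733526 to 4739922, minus strand) had 1693 and 2488 reads in the controls (44.3 and 49.9 FPKM) and 1329 and 1701 with overexpression (31.0 and 36.1 FPKM). Both overexpression libraries were below both controls, in FPKM and in TMM-scaled CPM. The log2 fold change of -0.28 (SE 0.18) did not pass (edgeR adjusted p = 0.258). It was -0.13 without overexpression replicate 1 and -0.45 without overexpression replicate 2. The mRNA length used for CXCL16, 1945 nt, is the median of principal transcripts of 2222 and 1668 nt, and other lengths were not tried. The 200 coding genes nearest in mRNA length had a median log2 fold change of 0.38, and 190 of them were above CXCL16. Relative to their median CXCL16 was at 0.24 and 0.39 in the controls and at -0.39 and -0.25 with overexpression, a difference of -0.64 (replicate SD 0.11 and 0.10, n = 2 each). With the length offset the log2 fold change was -0.62 (SE 0.16, edgeR adjusted p = 0.0594), and on a TPM scale it was -0.78 and passed (edgeR adjusted p = 0.0138). On the TPM scale all 12168 tested genes had a median of -0.49, and 4516 were called lower. The exons of CXCL16 share 85 nt with MED11 on the opposite strand, a gene with 51 to 181 reads per library.

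CX3CL1 (ENSG00000006210; chromosome 16, 57372458 to 57385048, plus strand) had 486 and 625 reads in the controls and 382 and 514 with overexpression, at 5.94 and 5.85 FPKM against 4.16 and 5.09 FPKM. The groups did not overlap in FPKM, which is scaled to total count, where all tested genes had a median log2 fold change of -0.20. On TMM-scaled CPM the groups of CX3CL1 overlapped. Its log2 fold change was -0.14 (SE 0.20, edgeR adjusted p = 0.608), near the median of -0.13 of its 200 like-length genes, of which 102 were above it. It was -0.64 on a TPM scale and passed there (edgeR adjusted p = 0.0335). On that scale all 12168 tested genes had a median of -0.49, and 4516 were called lower. The log2 fold change of CX3CL1 was -0.35 without overexpression replicate 2 and 0.04 without overexpression replicate 1. CXCL14 (ENSG00000145824; chromosome 5, 135570679 to 135579279, minus strand) had 57 and 53 reads in the controls and 58 and 80 with overexpression, or 2.11 and 1.50 FPKM against 1.91 and 2.40 FPKM. The groups overlapped in FPKM, the log2 fold change was 0.48 (SE 0.33, edgeR adjusted p = 0.279), and it was -0.03 on a TPM scale. Of its 200 like-length genes, with a median log2 fold change of 0.31, 65 were above CXCL14. The exons of CXCL14 share 78 nt with SLC25A48 on the opposite strand, a gene with 7 to 17 reads per library. They also share 95 nt with the antisense gene AC034206.1, which had 0 or 1 reads per library.

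**Figure D4:**
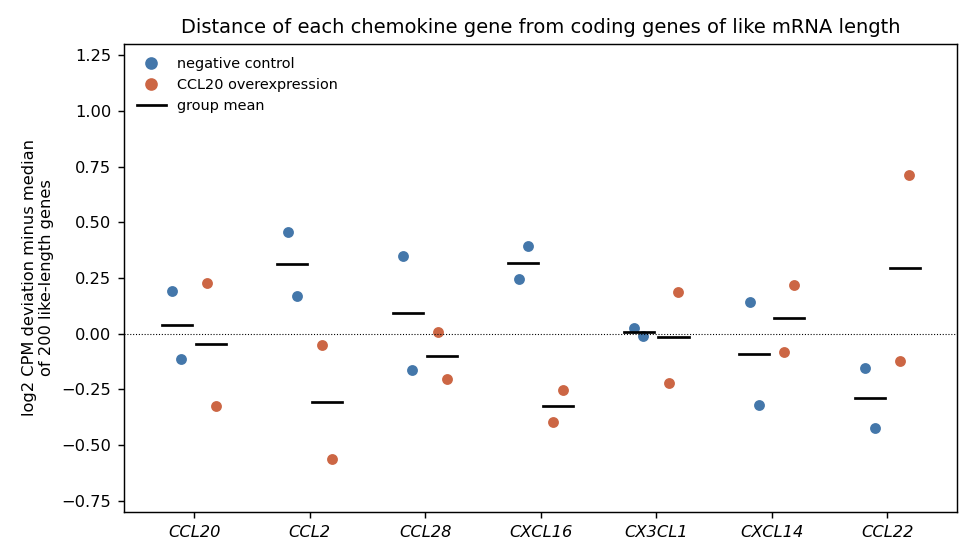
Deviation of log2 CPM from the gene's mean, minus the median of the same over the 200 coding genes nearest in mRNA length (y axis), for 7 chemokine genes in each library (points) with group means (lines). CXCL16 and CCL2 are lower in both overexpression libraries than in both controls, CCL22 is high in overexpression replicate 2, and the groups of CCL20 overlap.

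Of the 8 genes 7 were tested, 1 was called higher (CCL20) and 0 were called lower at an edgeR adjusted p under 0.05. At an unadjusted p under 0.05 in the same fit, 2 were higher (CCL20 and CCL2) and 0 lower, and DESeq2 called CCL20 alone among the 7. Over all 12168 genes tested, 16.5% were called higher and 15.7% lower. The 3915 genes called became 650 and 989 without control replicate 1 or 2, and 7579 and 6413 without overexpression replicate 1 or 2. Both overexpression libraries were above both controls in TMM-scaled CPM for 3 of the 7 (CCL20, CCL2 and CXCL14) and below for 1 (CXCL16), where 35.8% of all tested genes were above and 35.8% below. The median log2 fold change of the 7 was 0.45, against 0.00188 over all tested genes. With the length offset 0 of the 7 were called in either direction by edgeR, where 3.63% of 10572 coding genes were called higher and 3.19% lower. At an unadjusted p under 0.05, 0 were then higher and 1 was lower (CXCL16), and the median of the 7 was -0.00521.

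**Figure D5:**
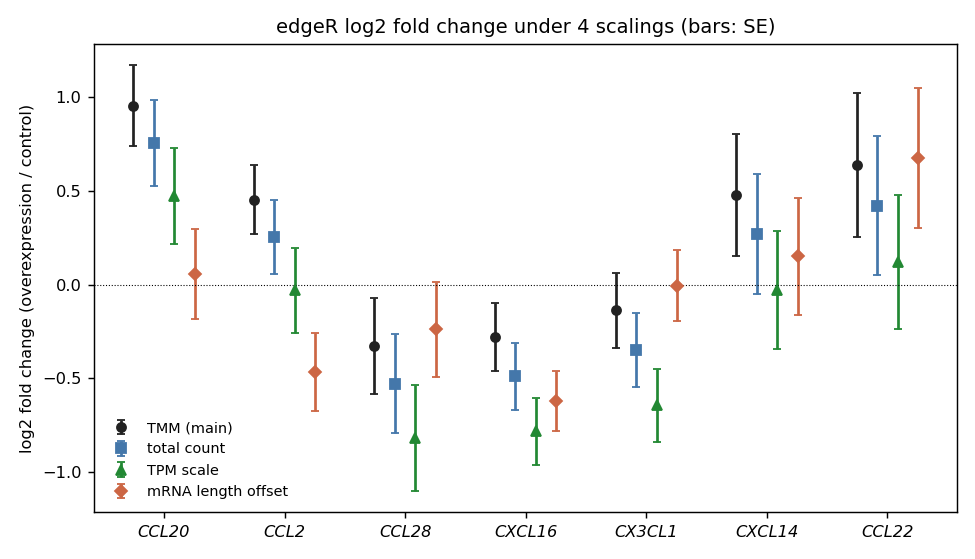
edgeR log2 fold change (y axis, CCL20 overexpression over control, bars are SE) of 7 chemokine genes scaled by TMM, by total count, to a common TPM sum, or with an mRNA length offset. CCL20 ranges from 0.95 to 0.06, CCL2 from 0.45 to -0.47, and CXCL16 is below 0 in each. The median over all tested genes was -0.20 by total count and -0.49 on the TPM scale.

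Among the receptors, those of the members were at few reads or had no row. CCR6, CCR2 and CCR4 have no row in the tables used here. CXCR6, the receptor of CXCL16, had 13 and 7 reads in the controls and 2 and 4 with overexpression, and CX3CR1 had 1, 0, 0 and 2 in the same order. CCR10, a receptor of CCL28, had 8 and 4 reads in the controls and 5 and 11 with overexpression. Of 25 listed receptors and related genes 4 were tested, of which 0 were called higher and 1 lower by edgeR, where 16.5% and 15.7% of all tested genes were. Folds of the list genes are edgeR folds on TMM-scaled counts, and so differ from ratios of the FPKM means. The one lower was GPR75, with 94 and 110 reads in the controls and 23 and 9 with overexpression (5.63-fold lower, edgeR adjusted p = 0.00639; with the length offset 0.0141), and it lies on the same strand within the annotated readthrough gene GPR75-ASB3, so its value is uncertain. Its log2 fold change of -2.49 was -3.34 without overexpression replicate 1 and -1.95 without overexpression replicate 2. ACKR3, a scavenging receptor, was at 3.55 ± 0.467 and 3.12 ± 1.22 FPKM in control and overexpression cells and CXCR2 at 1.43 ± 0.0877 and 1.14 ± 0.155 FPKM (SD, n = 2 each). CCRL2, a nonsignalling receptor, was at 0.888 ± 0.141 and 1.20 ± 0.193 FPKM (SD, n = 2 each), and none of these 3 passed (edgeR adjusted p from 0.171 to 0.990).

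Of 39 other chemokine ligands 21 had a row and 7 were tested, with 2 called higher and 1 lower, where 16.5% and 15.7% of all tested genes were. Their median was 0.42 on the log2 fold change scale, and -0.06 with the length offset. The neutrophil attractants CXCL1 and CXCL2 rose 1.62- and 1.78-fold on TMM-scaled counts (edgeR adjusted p = 0.0228 and 0.0391). CXCL1 was at 64.5 ± 5.72 FPKM in the controls and 91.2 ± 18.7 FPKM with overexpression (SD, n = 2 each). Neither passed with the length offset (-0.06 and 0.14 on the log2 scale, edgeR adjusted p = 0.885 and 0.810). CXCL8 had 2479 and 2222 reads in the controls and 3876 and 1819 with overexpression, so its groups overlapped. XCL2 fell 3.06-fold on 21, 28, 6 and 8 reads (edgeR adjusted p = 0.0497; with the length offset 0.0258), but it is nearly identical to XCL1, which had 16, 59, 35 and 74 reads, and its value is uncertain.

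Of 23 proteases that shed or trim chemokines 16 were tested, of which 1 was called higher and 4 lower, around a median of -0.20 on the log2 fold change scale (median mRNA 3657 nt). Of all tested genes 16.5% were called higher and 15.7% lower. With the length offset 1 was higher and 0 lower, and the median was -0.06. ADAM17, a sheddase of CX3CL1, was at 7.80 ± 0.697 FPKM in the controls and 2.66 ± 1.52 FPKM with overexpression (SD, n = 2 each). On TMM-scaled counts it fell 2.57-fold (log2 fold change -1.36, edgeR adjusted p = 0.0168; -2.04 without overexpression replicate 1), and it did not pass with the length offset (log2 fold change -1.04, edgeR adjusted p = 0.0809). ADAM9, at 49.1 ± 1.50 FPKM in the controls and 26.9 ± 8.33 FPKM with overexpression (SD, n = 2 each), fell as well and DPP8 fell 1.80-fold (edgeR adjusted p = 0.0373 and 0.0172), and neither passed with the offset (edgeR adjusted p = 0.198 and 0.282). CTSD, the lysosomal protease cathepsin D, was at 24.5 ± 1.70 FPKM in the controls and 51.3 ± 2.33 FPKM with overexpression (SD, n = 2 each). It rose 2.42-fold on TMM-scaled counts (edgeR adjusted p = 0.00433) and also passed with the length offset (log2 fold change 1.02, edgeR adjusted p = 0.0127). PLAU and CTSB were the most abundant of the list, at 349 ± 16.1 and 63.0 ± 4.88 FPKM in the controls and 405 ± 11.5 and 61.2 ± 7.02 FPKM with overexpression (SD, n = 2 each), and did not pass (edgeR adjusted p = 0.0637 and 0.478).

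Genes that make or carry heparan sulfate, on which chemokines are held at the cell surface, were lower in 4 and higher in 0 of 18 tested members, around a median of -0.25 on the log2 fold change scale, for mRNAs with a median of 4605 nt. Of all tested genes 15.7% were called lower and 16.5% higher. With the length offset 1 was higher and 1 lower, and the median was 0.00372. NDST1, a heparan sulfate sulfotransferase, was at 27.2 ± 1.58 FPKM in the controls and 10.8 ± 0.141 FPKM with overexpression (SD, n = 2 each), and it fell 2.19-fold on TMM-scaled counts (edgeR adjusted p = 0.00447). EXTL3 fell 1.57-fold (edgeR adjusted p = 0.0205), and neither of the pair passed with the offset (edgeR adjusted p = 0.133 and 0.845). SDC3, the core protein syndecan-3, fell 1.63-fold and passed in both fits (edgeR adjusted p = 0.0211 and 0.00974). The offset took 1580 nt as its mRNA length, and its log2 fold change was -0.71 without and -1.24 with the offset. Other annotated lengths of SDC3 were not tried, so its value with the offset is uncertain. The abundant carriers SDC4, CD44 and SDC1 were at 485 ± 61.7, 187 ± 2.10 and 115 ± 2.33 FPKM in the controls and at 413 ± 52.9, 153 ± 4.08 and 94.6 ± 8.92 FPKM with overexpression (SD, n = 2 each), and did not pass (edgeR adjusted p from 0.687 to 0.905).

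Of 32 genes of the NF-kB and interleukin-17 pathways that control CCL20 and CCL2 transcription 31 were tested, of which 3 were called higher and 2 lower, around a median of -0.01 on the log2 fold change scale, where 16.5% of all tested genes were called higher and 15.7% lower. With the length offset 0 were called by edgeR in either direction. IL17RC, a subunit of the interleukin-17 receptor, rose 1.81-fold, and RELB, an NF-kB subunit, rose 1.61-fold (edgeR adjusted p = 0.0213 and 0.0278). NFKBIZ, a coactivator of NF-kB targets, fell 1.70-fold, and TNFAIP3, a feedback inhibitor, fell 1.56-fold (edgeR adjusted p = 0.0134 and 0.0279). TNFAIP3 was at 90.4 ± 3.99 FPKM in the controls and 50.5 ± 11.5 FPKM with overexpression (SD, n = 2 each). Without a call, NFKBIA, the inhibitor IkB alpha, was at 73.7 ± 0.505 FPKM in the controls and 87.4 ± 7.57 FPKM with overexpression, and IRAK1 at 63.3 ± 4.01 and 52.5 ± 10.3 FPKM (SD, n = 2 each; edgeR adjusted p = 0.0567 and 0.845).

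Of the 15 genes of these lists named as called, 4 (XCL2, GPR75, CTSD and SDC3) also passed with the length offset. Over all genes, 3915 of 12168 were called in the main fit, and 721 of 10572 coding genes with the length offset. Without control replicate 1, 3 of the 15 passed (GPR75, CTSD and ADAM17), and without control replicate 2 these and NDST1 passed. Fits without an overexpression library take their spread from the controls alone, so calls kept there are not counted for the 15.

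The members differ in features of their mRNAs that played no part in their choice. The 3′ UTR of CCL20 holds 3 copies of ATTTA, a pentamer of AU-rich decay elements, counted on the mRNA strand with overlaps allowed. Of 204 coding genes with an mRNA of 716 to 893 nt 5.88% hold at least 3 copies, and of 10547 tested coding genes of any length 40.8% do. CCL28 holds 7 copies, CX3CL1 2, CCL2, CXCL16 and CXCL14 1 each, and CCL5 and CCL22 0. The GC content of the CCL20 mRNA was 36.2% and that of CCL2 41.0%, against a median of 53.5% over the same 204 genes.

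Neighbouring chemokine genes were expressed at unlike levels. CCL22 and CX3CL1 lie 6267 nt apart on chromosome 16, at 1.07 and 5.26 FPKM, and CCL17, 19718 nt beyond CX3CL1, had 1 read in the 4 libraries together. CCL7 lies 13017 nt from CCL2 on chromosome 17 and had 1 and 3 reads in the controls and 3 and 6 with overexpression, where CCL2 had 2884 to 3982.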

How the data were processed

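Samples were grouped by their labels. The submitters' processing notes name HISAT2, HTSeq 0.13.5 and GRCh38. The strand setting, annotation and trimming are not given there, so reads of genes that overlap on opposite strands cannot be told apart. The deposited counts are whole reads per gene, and the FPKM values deposited by the authors equal the count per kilobase of gene length, scaled to the library's total count. All 29437 identifiers matched GENCODE 29. Replicate counts differed by more than sampling noise (chi-square per gene 7.09 in the controls, 42.5 with overexpression).

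The main test was edgeR 4.0.16 in R 4.3.3 (glmQLFit and glmQLFTest, TMM, two-sided, threshold 0.05, Benjamini-Hochberg over 12168 genes whose mean FPKM reached 1), checked on simulated data. The simulation gave both groups the same dispersion, whereas the replicate spread here differed between groups, so it does not give the error rate in these data. The SE is the log2 fold change over the root of F. The length offset is a natural spline (5 degrees of freedom) of each library's deviation in log2 CPM (prior count 2) on the mRNA length (median of principal transcripts) of 10572 coding genes. Alternatives were DESeq2 1.42.0, limma 3.58.1, other filters and scalings, a replicate block, and omission of single libraries. Ratios and intervals used Python 3.11.15 and scipy 1.17.1. The genes named are the 8 members and, of each pathway list, the 3 tested genes with the smallest p and the 3 most abundant, then the 2 most abundant of each marker list, the 5 genes most like CCL20, and chromosome neighbours. Receptors of the members, XCL1 and MED11 were named after their values were seen, and the within-library ratios were also chosen then. The members and lists were chosen with earlier results of these data known.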

Additional observations from a re-analysis of the deposited data

How the results depend on the processing

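The 3915 genes called by edgeR became 721 with the length offset and 2066 with the offset and the replicate block together, a combination chosen after seeing the data. They ranged from 650 to 7579 when a library was left out: 650 and 989 without control replicates 1 and 2, 7579 and 6413 without overexpression replicates 1 and 2. The split of 2010 higher and 1905 lower became 500 and 4516 on a TPM scale, 1275 and 2963 by total count, and 1245 and 2608 with limma on log2(FPKM + 1). The median log2 fold change over all tested genes was 0.00188 in the main fit. In the same order it was -0.49, -0.20 and -0.17 in these alternatives. CCL20 lost its call on a TPM scale (log2 fold change 0.47, edgeR adjusted p = 0.172), with the offset (0.0569) and with the offset and block (0.0355); its leave-one-out values ran from 0.78 to 1.12, without a call when control replicate 1 or 2 was left out (edgeR adjusted p = 0.0945 and 0.198). CCL2 gained a call without a filter (0.50, edgeR adjusted p = 0.0467) and with the replicate block (0.45, edgeR adjusted p = 0.0287). It changed sign on a TPM scale (-0.0306), with the offset (-0.47) and with the offset and block (-0.49, edgeR adjusted p = 0.0214), and ran from 0.29 to 0.60 with a library left out, passing without either overexpression library. CXCL16 gained a call on a TPM scale (-0.78) and with the offset and block (-0.62, edgeR adjusted p = 0.00253) and without overexpression replicate 2, with leave-one-out values from -0.45 to -0.13. CX3CL1 gained one on a TPM scale (-0.64) and without overexpression replicate 2 (-0.35); its leave-one-out values ran from -0.35 to 0.0410, the latter without overexpression replicate 1. CXCL14 changed sign on a TPM scale (-0.0286) and ran from 0.25 to 0.73 with a library left out, CCL28 from -0.55 to -0.07, and CCL22 from 0.15 to 0.998, passing in these 4 fits without overexpression replicate 1 alone. Of the 15 called genes of the lists, tried under the same alternatives after seeing the data, 1 changed sign, CXCL1, with the offset (-0.0627) and with the offset and block (-0.0830). Of the 11 named without a call, CXCL8, ACKR3, CTSB, CD44, SDC1, NFKBIA and IRAK1 also differed in sign with the offset. Of these 11, 3 were called on a TPM scale, 1 without a filter, 2 with the replicate block, 1 with the offset and block, 4 without overexpression replicate 1 and 4 without overexpression replicate 2, and 0 under the other alternatives. The cause of these changes was not tested. With 1 library left in a group, that library is assumed to vary like the other group. Calls without an overexpression library thus rest on the spread of the controls alone. The distances from like-length genes moved by less than the replicate SD with 100 or 400 in place of 200 genes. The replicate block raised the calls to 5758; over 12168 genes, the difference between replicates 1 and 2 in the controls had a correlation of 0.27 with that in the overexpression libraries, and with 2 pairs the numbers were not taken as a pairing. CCL5, with 7 reads in all, is limited by depth and had no test to vary.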
